A study of Mus musculus with 12 samples.

Results

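Adult neural stem/progenitor cells (aNSPCs) grown as dividing neurospheres were compared with and without added NAD+ (nicotinamide adenine dinucleotide), and the question was which genes differ in expression in the NAD+ group compared to Ctrl under proliferating conditions. The comparison holds 6 of the 12 RNA-seq samples of the study, 3 Ctrl and 3 NAD+, and was chosen by the sample titles. Of 55401 genes in the table of the proliferating condition, 12626 had a mean of at least 1 FPKM, the fragment number per length of transcript and depth of library, over the 6 samples and were tested, 15278 were detected below that level and 27497 were at 0 in all 6 samples. The cells of every group came from the forebrain of C57BL/6 mice aged 8 to 10 weeks and were cultured in medium with 20 ng/mL EGF and 20 ng/mL FGF-2. The NAD+ group had 1 mM NAD+ in the medium, and how long the cells for RNA-seq were exposed is not given in the sources used here. The treatment field of the labels lists all 12 samples as untreated, so the groups rest on the titles alone. The other 6 samples, kept under differentiation conditions with retinoic acid and forskolin, enter only where the NAD+ effect is set against the effect there. The study describes the samples of each group as biological repeats, and the labels do not say whether these were separate cultures or separate mice, so that p-values measure the spread between these samples.

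NAD+ carries electrons between metabolic enzymes such as those of glycolysis and the tricarboxylic acid (TCA) cycle, and is consumed by sirtuins and poly-ADP-ribose polymerases. Outside cells it is split by surface enzymes into smaller nucleotides, nucleosides and nicotinamide. Neural stem/progenitor cells in culture depend on EGF and FGF-2 for division, make their own cholesterol and fatty acids for new membrane, draw on glycolysis, and express genes of the astrocyte and oligodendrocyte lineages beside stem cell genes.

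The neural identity of the cultures was checked with marker genes. Sox2, a transcription factor of neural stem cells, was between 205.67 and 251.88 FPKM in the 6 samples, and Nes, the intermediate filament of neural progenitors, was between 47.77 and 96.96 FPKM. Of 19 stem and progenitor genes, 15 reached a mean of 1 FPKM. Prom1 (0.17 to 0.32 FPKM) and Thbs4 (0.03 to 0.16 FPKM) were among those that did not. No endothelial or mural cell marker reached a mean of 1 FPKM, and of 16 microglia and macrophage markers 2 did, among them Cd68, a lysosomal gene found in other cells too. Of 12 ependymal and blood markers, Foxj1 alone did, at 8.7 to 10.3 FPKM. Of 12 fibroblast and meningeal markers 2 did, Ptgds at 34.31 to 64.77 FPKM and Pdgfra, which is also in the oligodendrocyte list. Ctrl replicate 1 stood apart from the other samples, with a score of -54.08 on the main principal component, which held 40.5% of the variance, against scores from 3.74 to 19.16 in the other 5 samples. It also had trace levels of genes that were at 0 in the other 5 samples, such as the haemoglobin gene Hbb-bs at 0.61 FPKM, the choroid plexus gene Ttr at 0.33 FPKM and the microglial gene C1qa at 0.21 FPKM. Its summed FPKM was 363330 against 308828 to 314683 in the other samples. The part of these traces in the results was not tested. The counts of calls are also given without this sample, and the counts of a gene list where leaving out a sample changed them substantially.

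The limma test on log2(FPKM + 0.1), where the added 0.1 shrinks fold changes at low levels, gave 29 genes that rose with NAD+ (0.230% of the genes tested) and 46 that fell (0.364%) at a Benjamini-Hochberg adjusted p-value under 0.05. Of these 75 genes, 68 were named genes that are not pseudogenes, 28 higher and 40 lower, and most but not all of them are described here. The others were 3 pseudogenes, 3 predicted or uncharacterised genes and 1 mitochondrially encoded gene, which are counted and not described. Ctrl and NAD+ samples were fully separated for each of the 75, and for 2400 genes higher (19.0%) and 1134 genes lower (8.98%) with NAD+ among all genes tested. For a single gene, the exact two-sided permutation test of 3 samples against 3 cannot go below p = 0.10, the value that every gene with separated groups has. Unadjusted, 1441 genes higher (11.4%) and 824 genes lower (6.53%) had a p-value under 0.05, shares that serve as the background for the gene groups below. This background differs with level, since 139 of the 905 genes with a mean of at least 50 FPKM were lower and 43 higher. A list of well-expressed genes therefore has a larger share lower to be set against than 6.53%. The rule of an unadjusted p-value under 0.05 with more than 2-fold change of the mean FPKM gave 63 genes higher (0.499%) and 59 lower (0.467%). The median log2 fold change of all genes tested was 0.08, and the quartiles were -0.09 and 0.25. Gene groups are lists chosen for this tissue and treatment, and where a gene without an adjusted p-value under 0.05 is named from a list beyond its highest members, it was chosen after its values were seen. The medians of the sterol, fatty acid, glycolysis, TCA, respiratory chain, oligodendrocyte, astrocyte and ion channel lists stayed below 0, and those of the S-phase, G2/M, p53, AP-1 and collagen lists above 0, under all 3 other scalings tried.

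The number of calls changed with the samples included. Without Ctrl replicate 1 there were 61 rises and 74 falls, which included 64 of the 75 genes. Leaving out Ctrl replicate 2 gave 1 rise and 0 falls, leaving out Ctrl replicate 3 or NAD+ replicate 1 gave 0 calls, NAD+ replicate 2 gave 0 rises and 2 falls, and NAD+ replicate 3 gave 1 rise and 2 falls, and none of the 75 genes was among these calls. In the refits with 0 calls, 1178 genes were higher and 671 lower at an unadjusted p-value under 0.05 without Ctrl replicate 3, and 1392 and 770 without NAD+ replicate 1. All 75 kept an unadjusted limma p-value under 0.05 in each of these 6 refits, which reuse samples that chose the genes. Their direction could not change, because their groups do not overlap, so neither result is read as a test of stability. The balance of rises and falls moved with the scaling between samples, to 21 rises and 68 falls with median-ratio scaling and to 29 and 91 with quantile normalization. Rescaling the nuclear genes of each sample to the same sum left 0 calls, with a smallest adjusted p-value of 0.0506 from limma, an unadjusted p-value under 0.05 for 1541 genes higher and 569 lower, and the direction kept by all 74 genes tested there.

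**Figure D1:**
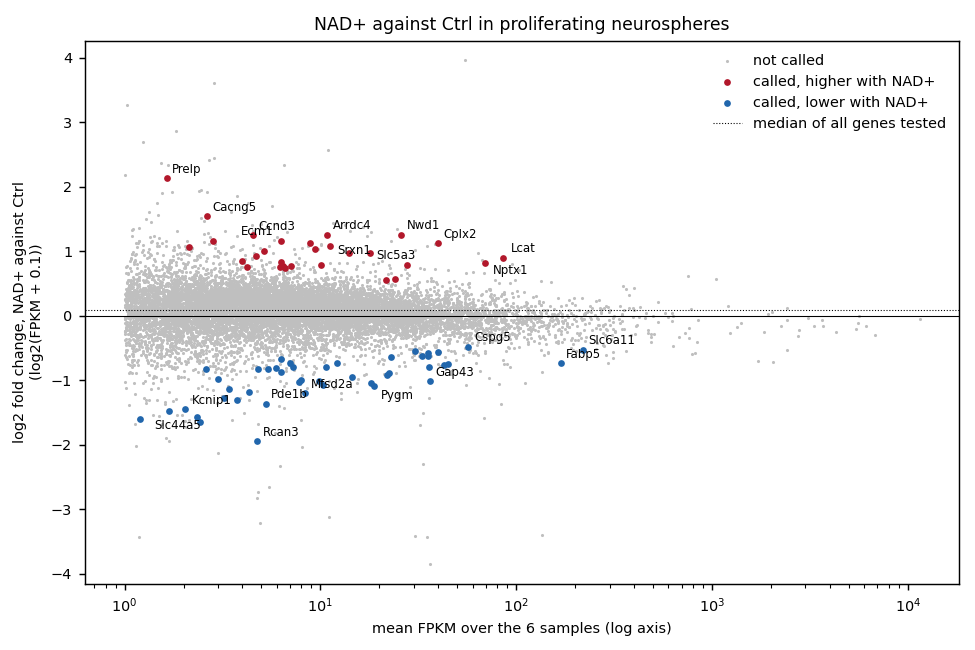
Log2 fold change (NAD+ against Ctrl, log2(FPKM + 0.1)) against the mean FPKM of the 6 samples (log axis), 1 point per gene tested without mt-Atp6, red and blue for genes that rose or fell at an adjusted p-value under 0.05 and grey for the rest. The called genes spread over levels from about 1 FPKM to Slc6a11 and Fabp5, and points with larger changes in grey did not pass the test.

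The largest named rise was that of Prelp, which encodes a small leucine-rich matrix proteoglycan and was at 0.67, 0.56 and 0.43 FPKM in Ctrl and 2.43, 2.89 and 2.87 FPKM with NAD+ (log2 fold change 2.13 ± 0.21, SE). The gene lies on the minus strand of chromosome 1 (133910304 to 133921414, GRCm38). Ecm1, an extracellular matrix glycoprotein, had 3.76, 3.97 and 3.74 FPKM in Ctrl and 9.94, 8.39 and 7.88 FPKM with NAD+, for a log2 fold change of 1.17 ± 0.11 (SE). Sned1, another matrix protein, went from 2.84, 4.05 and 3.41 to 6.96, 7.20 and 6.63 FPKM, and Plxnd1, a receptor for semaphorins, from 4.92, 6.76 and 6.93 to 12.45, 13.17 and 12.37 FPKM. For these genes the lowest NAD+ sample lay well above the highest Ctrl sample, while Ctrl replicate 1 was the lowest Ctrl sample for Sned1 and Plxnd1.

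Further rises were of genes with different roles. Ccnd3, cyclin D3, which drives entry into S phase together with CDK4 and CDK6, was at 2.30, 3.31 and 2.40 FPKM in Ctrl and 6.38, 5.78 and 7.06 FPKM with NAD+ (log2 fold change 1.25 ± 0.16, adjusted p = 0.0412). Srxn1, sulfiredoxin, which repairs oxidised peroxiredoxins, was at 6.98, 7.0 and 7.43 FPKM in Ctrl and 13.34, 16.39 and 15.83 FPKM with NAD+ (1.07 ± 0.10, adjusted p = 0.0252). The groups did not overlap for either gene, and the Ctrl samples of Ccnd3 spread more than those of Srxn1. Arrdc4, an alpha-arrestin that limits glucose uptake, had 7.07, 6.27 and 5.52 FPKM in Ctrl and 19.42, 13.49 and 13.15 FPKM with NAD+. Its relative Txnip, which has the same role and also binds thioredoxin, was at 17.17, 16.32 and 9.53 FPKM against 40.43, 27.95 and 26.64 FPKM, a difference that missed the threshold (1.16 ± 0.26, adjusted p = 0.11). NAD+ replicate 1 was the highest sample for both arrestins. Dusp5, a nuclear phosphatase for ERK, Gadd45a, a growth arrest gene, Sertad1, a CDK4-binding protein, and Hexim1, an inhibitor of the elongation factor P-TEFb, rose as well, by log2 fold changes of 0.93, 0.76, 0.73 and 0.79. Map1lc3b, the autophagosome protein LC3B, went from 10.76, 8.79 and 8.63 to 19.81, 17.35 and 18.50 FPKM (0.98 ± 0.11).

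The named rises with the highest levels were those of Cplx2, Lcat and Nptx1. Cplx2, complexin 2, which regulates the fusion of synaptic vesicles, was at 21.31, 26.63 and 27.21 FPKM in Ctrl and 51.92, 57.25 and 53.96 FPKM with NAD+ (1.12 ± 0.11, adjusted p = 0.0264). Lcat, the plasma enzyme that esterifies cholesterol on lipoproteins, was at 51.86, 64.20 and 64.34 FPKM in Ctrl and 99.50, 116.92 and 120.01 FPKM with NAD+ (0.90 ± 0.12). Nptx1, neuronal pentraxin 1, had 45.05, 53.95 and 51.92 FPKM against 98.07, 86.08 and 81.75 FPKM (0.82 ± 0.11). For each of these 3 genes Ctrl replicate 1 was the lowest sample. Slc5a3, the sodium-coupled inositol transporter, had 11.79, 12.39 and 11.63 FPKM against 28.58, 20.45 and 22.14 FPKM. Nwd1 was at 11.59, 18.13 and 16.48 FPKM in Ctrl and between 35.08 and 38.70 FPKM with NAD+, and Serpinb8 (a serine protease inhibitor), Sntb2 (beta-2-syntrophin of the dystrophin complex), Pdlim4 (a PDZ and LIM domain protein of the actin cytoskeleton) and Cacng5 (an AMPA receptor auxiliary subunit) rose by log2 fold changes from 1.07 to 1.55.

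The largest named fall was that of Rcan3, a regulator of the calcium-dependent phosphatase calcineurin, on the minus strand of chromosome 4 (135412308 to 135433853, GRCm38), at 6.37, 7.88 and 8.58 FPKM in Ctrl and 2.09, 1.79 and 1.8 FPKM with NAD+ (-1.94 ± 0.14, adjusted p = 0.0225). Pde1b, a calcium-dependent phosphodiesterase of cyclic nucleotides, fell as well, with 9.99, 6.46 and 6.56 FPKM in Ctrl and 2.75, 2.95 and 2.89 FPKM with NAD+ (-1.36 ± 0.18, adjusted p = 0.0412). Kcnip1, a calcium-binding partner of Kv4 potassium channels, was at 3.54, 2.81 and 2.69 FPKM against 1.07, 0.97 and 1.06 FPKM (-1.45 ± 0.16). For Pde1b and Kcnip1 the highest value was in Ctrl replicate 1. Kcnmb4, a subunit of calcium-activated potassium channels, had 22.02, 25.19 and 26.28 FPKM against 10.19, 11.48 and 14.19 FPKM, and Chrna4, a nicotinic acetylcholine receptor subunit, had 5.35, 6.34 and 6.37 FPKM against 2.58, 2.34 and 2.86 FPKM.

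Other falls were of genes with unrelated roles. Mfsd2a, the transporter of docosahexaenoic acid as lysophosphatidylcholine, was at 11.95, 12.01 and 11.10 FPKM in Ctrl and 5.73, 4.76 and 4.64 FPKM with NAD+ (-1.20 ± 0.11, adjusted p = 0.0249). Slc44a5, a choline transporter-like protein, had 2.74, 2.38 and 2.45 FPKM against 1.02, 0.83 and 0.69 FPKM. Rlbp1, a retinaldehyde-binding protein also found in glia, had 6.10, 4.85 and 5.16 FPKM against 2.56, 1.61 and 2.27 FPKM, and St6gal2, a sialyltransferase, had 4.12, 4.80 and 5.26 FPKM against 2.09, 2.25 and 1.92 FPKM. In each of these genes the highest NAD+ sample was well below the lowest Ctrl sample. Fam210b, a mitochondrial membrane protein, and Frmpd1 fell by 1.27 and 1.02 on the log2 scale. Sat1, the rate-limiting enzyme of polyamine breakdown, was at 34.64, 25.02 and 28.51 FPKM against 16.60, 14.93 and 15.51 FPKM, and Arntl, the core clock activator BMAL1, was at 3.44, 3.36 and 3.29 FPKM against 1.94, 1.84 and 1.8 FPKM.

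**Figure D2:**
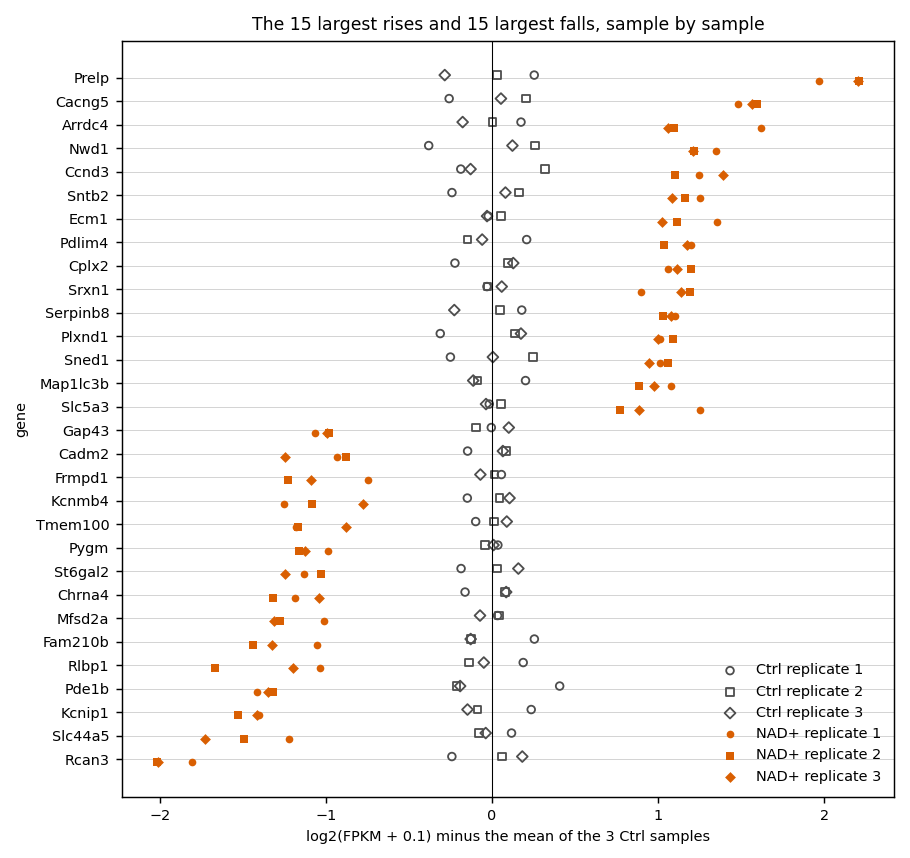
Sample values of the 15 named genes with the largest rises and the 15 with the largest falls, as log2(FPKM + 0.1) minus the mean of the 3 Ctrl samples, with open grey symbols for Ctrl and filled orange symbols for NAD+ and a symbol shape per replicate number. The groups are separated for all 30 genes, and the Ctrl samples spread most for Pde1b and Nwd1, where replicate 1 lies off the other samples.

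Enzymes of cholesterol synthesis were lower with NAD+ along the whole pathway, although Nsdhl alone passed the test. Of 20 enzymes of cholesterol synthesis, 17 were lower and 0 higher at an unadjusted p-value under 0.05, against a background of 6.53% lower, and 15 had all NAD+ values below all Ctrl values, against 8.98%. Nsdhl, the sterol dehydrogenase that helps remove methyl groups at carbon 4 (X chromosome, plus strand), was at 55.22, 51.39 and 54.75 FPKM in Ctrl and 28.31, 32.93 and 33.79 FPKM with NAD+, a log2 fold change of -0.77 ± 0.09 (adjusted p = 0.0395). Hmgcs1, which makes HMG-CoA, had 329.24, 369.16 and 407.94 FPKM against 182.93, 238.51 and 248.13 FPKM (-0.73 ± 0.14, adjusted p = 0.0935). Fdps and Fdft1, which make farnesyl pyrophosphate and squalene, had log2 fold changes of -0.86 ± 0.13 and -0.82 ± 0.13, with adjusted p-values of 0.0516 and 0.0594. Pmvk, Mvk and Mvd of the mevalonate steps had log2 fold changes of -0.68, -0.61 and -0.55. NAD+ replicate 1 was the lowest sample for Hmgcs1, Fdps and Fdft1.

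The 8 genes of sterol uptake, sensing and efflux that were tested did not share this pattern. Their median log2 fold change was 0.01, against -0.58 over the 20 enzymes. Srebf2, the transcription factor that controls the pathway, was at 49.71, 57.47 and 60.26 FPKM in Ctrl and 50.72, 55.44 and 55.21 FPKM with NAD+, values that overlapped. Insig1, which holds the SREBP complex in the endoplasmic reticulum, had a log2 fold change of -0.34 and Scap, its escort partner, of 0.20. Over the 28 tested members of the whole sterol list, 18 were lower and 1 higher at an unadjusted p-value under 0.05 and the median was -0.44. The number lower lay between 12 and 22 when samples were left out in turn, with the 12 reached without Ctrl replicate 3 or NAD+ replicate 1 and the 22 without Ctrl replicate 1.

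The promoters of sterol genes are known to pair an SREBP site with CCAAT boxes that bind NF-Y, and the promoters of 3 lipid genes are shown, Nsdhl and Acss2 because they fell and Hmgcs1 because it was the highest of the sterol enzymes. Each runs from 250 bases before to 50 bases after the RefSeq start site, on the plus strand of GRCm38.p6, with CCAAT or its reverse complement ATTGG in capitals. The windows are chrX:72918271-72918570 for Nsdhl, chr13:119690101-119690400 for Hmgcs1 and chr2:155517793-155518092 for Acss2.
Nsdhl: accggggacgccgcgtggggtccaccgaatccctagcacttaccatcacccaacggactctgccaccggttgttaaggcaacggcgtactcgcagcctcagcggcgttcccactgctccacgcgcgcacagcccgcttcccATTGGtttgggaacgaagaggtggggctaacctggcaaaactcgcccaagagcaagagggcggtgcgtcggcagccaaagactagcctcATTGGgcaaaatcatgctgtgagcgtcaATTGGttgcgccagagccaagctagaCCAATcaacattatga
Hmgcs1: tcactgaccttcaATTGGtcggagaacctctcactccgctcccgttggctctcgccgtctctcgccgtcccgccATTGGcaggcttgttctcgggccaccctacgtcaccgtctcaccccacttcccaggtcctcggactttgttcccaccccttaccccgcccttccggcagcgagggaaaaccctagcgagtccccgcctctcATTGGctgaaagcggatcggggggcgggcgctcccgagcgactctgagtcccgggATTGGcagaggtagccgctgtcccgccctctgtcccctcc
Acss2: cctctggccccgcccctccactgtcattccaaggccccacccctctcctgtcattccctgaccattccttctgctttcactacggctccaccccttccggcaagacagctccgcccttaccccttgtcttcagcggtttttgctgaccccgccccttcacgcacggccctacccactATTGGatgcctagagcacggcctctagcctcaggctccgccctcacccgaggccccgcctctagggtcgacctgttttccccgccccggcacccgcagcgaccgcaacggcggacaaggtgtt
Nsdhl and Hmgcs1 each held 4 such boxes and Acss2 held 1, which starts 73 bases before the start site. Of the 21 sterol list genes with a promoter in the table, 17 (81.0%) held CCAAT on either strand, and of the 21 fatty acid genes with a promoter 13 (61.9%) did, against 44.2% of the 8969 tested genes with a promoter and 41.1% of all 27025 genes with a promoter. Among all called genes with a promoter, 13 of 34 that fell (38.2%) and 10 of 27 that rose (37.0%) held it, shares below that of the tested genes. A match to the letters TCACNCCAC, a form of the sterol regulatory element, was in 1 of the 21 sterol promoters (4.76%) and in 1.44% of all promoters. These are counts of letters in a fixed window, which do not show that a factor binds there.

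Genes that use acetyl-CoA and fatty acids included 2 more falls. Acss2, which makes acetyl-CoA from acetate, was at 17.56, 19.65 and 20.02 FPKM in Ctrl and 9.51, 9.69 and 10.20 FPKM with NAD+ (-0.95 ± 0.09, adjusted p = 0.0249). Fabp5, a fatty acid-binding protein of progenitors (chromosome 3, 10012548 to 10016607, plus strand), was at 212.14, 215.39 and 205.96 FPKM against 122.34, 130.63 and 126.89 FPKM (-0.74 ± 0.07, adjusted p = 0.0252). Fabp7, the brain lipid-binding protein of radial glia and among the most highly expressed genes, had 2034.3, 2031.7 and 2253.7 FPKM against 1030.3, 1403.0 and 1516.2 FPKM, with an adjusted p-value of 0.11. All 3 genes had separate groups, and the spread of Fabp7 came mostly from NAD+ replicate 1. Scd1, Fads1 and Fads2, which desaturate fatty acids, had log2 fold changes of -0.44, -0.43 and -0.30, whereas Fasn and Acaca, which build the chain, had values of 0.07 and -0.18. Of 25 fatty acid synthesis and uptake genes tested, 9 were lower and 0 higher at an unadjusted p-value under 0.05, with a median of -0.24 and between 7 and 13 lower when samples were left out in turn. Of 23 fatty acid oxidation genes, 4 were lower and 0 higher, but 1 lower without NAD+ replicate 3 and 2 lower without NAD+ replicate 2 or with nuclear genes rescaled to equal sums, with the lowest unadjusted p-value for the acyl-CoA thioesterase Acot1, at 19.25, 13.56 and 12.68 FPKM against 10.95, 8.98 and 8.88 FPKM.

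**Figure D3:**
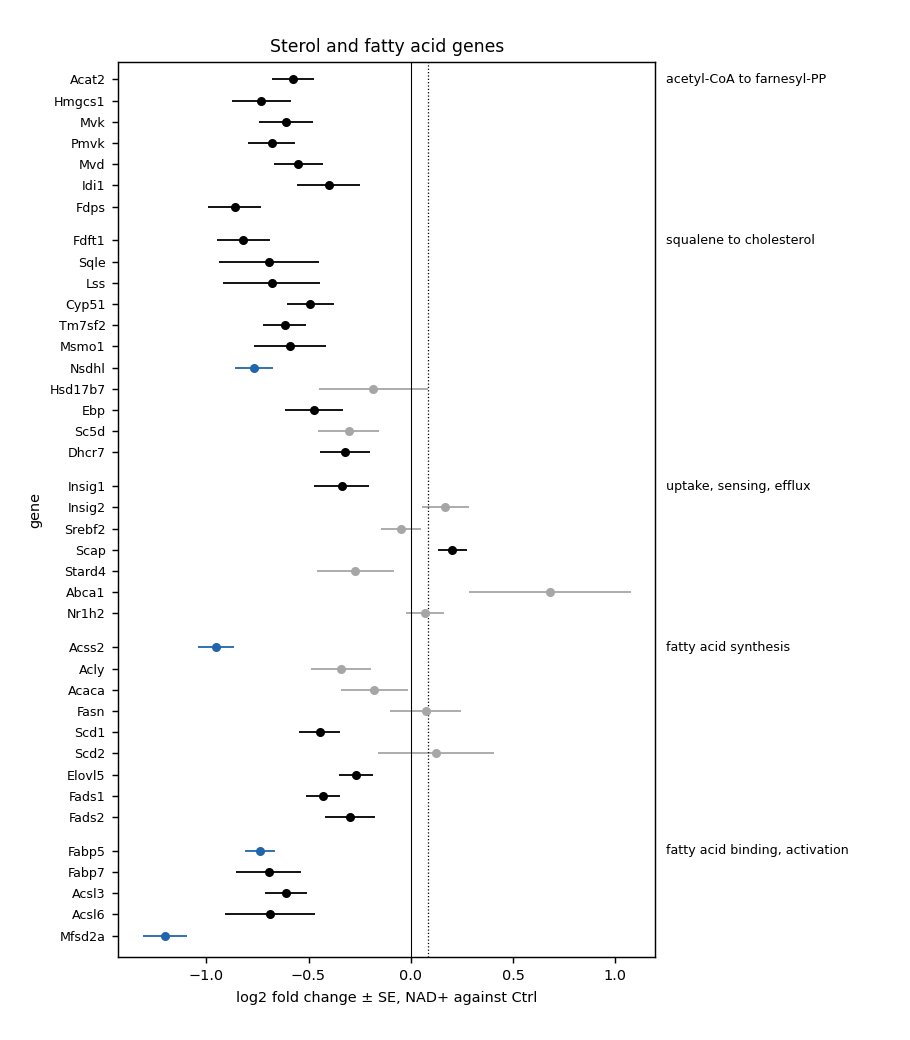
Log2 fold change ± SE (NAD+ against Ctrl, 3 samples each) of sterol and fatty acid genes in pathway order, blue where the adjusted p-value was under 0.05, black where only the unadjusted p-value was, grey otherwise, with the dotted line at the median of all genes tested. The enzymes of cholesterol synthesis shown all lie below 0, while the genes of sterol uptake, sensing and efflux lie on both sides.

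Glycolysis genes were lower with NAD+ by small amounts with little spread, and none passed the test. Of 30 entries tested, 16 were lower and 1 higher at an unadjusted p-value under 0.05, with a median log2 fold change of -0.31, and between 13 and 17 were lower when samples were left out in turn. Pgk1, phosphoglycerate kinase, was at 462.01, 409.80 and 432.79 FPKM in Ctrl and 298.41, 303.21 and 289.73 FPKM with NAD+ (-0.55 ± 0.08, adjusted p = 0.0516). Tpi1, triosephosphate isomerase, was at 169.40, 151.89 and 155.41 FPKM against 115.27, 110.45 and 104.69 FPKM (-0.53 ± 0.08, adjusted p = 0.0549). Gpi1 at the isomerase step had 142.24, 137.28 and 138.62 FPKM against 106.06, 106.59 and 105.29 FPKM, and Ldha, lactate dehydrogenase A, had 210.47, 219.12 and 221.05 FPKM against 168.96, 180.28 and 160.56 FPKM. In all 4 of these genes the groups did not overlap. The exceptions in direction were genes at lower levels, such as Eno2, the neuronal enolase, at 0.58, 0.91 and 0.72 FPKM against 1.51, 1.02 and 1.44 FPKM. The values of Gapdh, between 6.68 and 12.42 FPKM, are uncertain because the gene has many near-identical pseudogene copies and uniquely mapped reads alone were counted.

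Glycogen breakdown held a fall of larger size. Pygm, the muscle-type glycogen phosphorylase that astrocytes also use (chromosome 19, 6384399 to 6398459, plus strand), was at 26.09, 24.71 and 25.62 FPKM in Ctrl and 12.77, 11.34 and 11.61 FPKM with NAD+, 0.467 of the Ctrl mean (log2 fold change -1.09 ± 0.08, adjusted p = 0.0225). Pygb, the brain-type phosphorylase, had a log2 fold change of 0.08 and Gys1, glycogen synthase, of -0.09. Ppp1r3c, which targets protein phosphatase 1 to glycogen, was at 64.57, 56.61 and 50.81 FPKM against 47.40, 35.10 and 36.08 FPKM (-0.54 ± 0.15, adjusted p = 0.15). Over 19 glycogen genes, 5 were lower and 1 higher at an unadjusted p-value under 0.05. The number lower was 7 without Ctrl replicate 1 and 3 without Ctrl replicate 3, NAD+ replicate 2 or NAD+ replicate 3, and the median of -0.10 went to 0.01 without NAD+ replicate 3.

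Genes of mitochondrial metabolism were lower by smaller amounts. Of 26 TCA cycle genes, including pyruvate dehydrogenase subunits, all had a log2 fold change below 0, with a median of -0.23, a range from -0.49 to -0.02 and 0 calls. At an unadjusted p-value under 0.05, 12 were lower, a count that was 10 without Ctrl replicate 1 and went to 5 without Ctrl replicate 3, 4 without NAD+ replicate 2 and 3 without NAD+ replicate 3, refits in which the share of all genes lower was 5.31%, 4.98% and 4.94%. With nuclear genes rescaled to equal sums it was 7. Idh3a, a subunit of the NAD+-dependent isocitrate dehydrogenase, was at 47.37, 45.27 and 47.29 FPKM in Ctrl and 39.55, 36.86 and 37.31 FPKM with NAD+ (-0.30 ± 0.07, adjusted p = 0.13). The cytosolic, NADP+-dependent Idh1 was at 114.22, 98.88 and 110.83 FPKM against 77.12, 83.02 and 79.73 FPKM (-0.43 ± 0.09, adjusted p = 0.0944).

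The 70 nuclear-encoded respiratory chain and ATP synthase genes had a median of -0.20, with 14 lower and 0 higher at an unadjusted p-value under 0.05. That count went to 8 without NAD+ replicate 1 and to 4 without either of the other NAD+ samples. The share of all genes lower was 6.10% without NAD+ replicate 1, 4.98% without NAD+ replicate 2 and 4.94% without NAD+ replicate 3, so that 4 of 70 lay near the share of all genes. The median of the list went to -0.08 without Ctrl replicate 1. The 12 mitochondrially encoded protein genes described here, without mt-Atp6, had a median of -0.07 and 0 members under that p-value. mt-Cytb, the highest in significance among them, was at 9284.9, 6594.2 and 6773.9 FPKM against 6330.2, 5920.2 and 5888.3 FPKM. Ctrl replicate 1 was the highest sample for mt-Cytb, and the summed FPKM of the 12 genes was 64631 in that sample against 48432 to 53406 in the other 5, and without it their median was 0.03. The 78 cytosolic ribosomal protein genes had a median of 0.01, with 2 higher and 0 lower, or 15 higher and a median of 0.11 without Ctrl replicate 1. Scaling moved both lists across 0, with ribosomal medians of -0.06 under median-ratio scaling and 0.10 (17 higher) under quantile normalization, and a mitochondrially encoded median of 0.06 under quantile normalization.

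**Figure D4:**
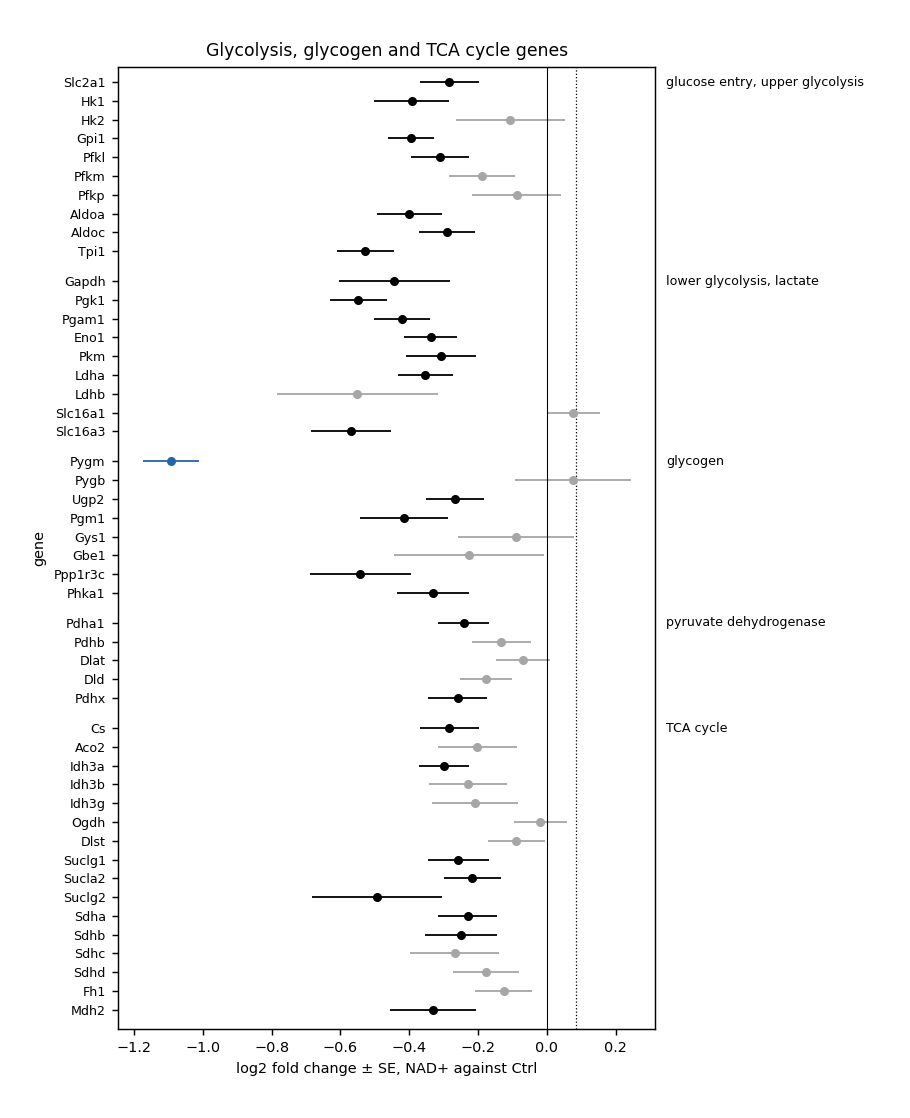
Log2 fold change ± SE (NAD+ against Ctrl, 3 samples each) of glycolysis, glycogen, pyruvate dehydrogenase and TCA cycle genes, with colours and dotted line as in the plot of sterol and fatty acid genes. Most glycolysis and TCA points lie below 0, and Pygm is the lowest point at -1.09.

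Genes of the oligodendrocyte lineage were lower with NAD+ and 2 of them fell. Tmem100, a transmembrane protein listed here with oligodendrocyte progenitors, was at 13.11, 14.15 and 14.94 FPKM in Ctrl and 6.13, 6.18 and 7.59 FPKM with NAD+ (-1.08 ± 0.11, adjusted p = 0.0276). Lhfpl3, a marker of oligodendrocyte progenitors, was at 45.47, 47.58 and 49.82 FPKM against 32.64, 31.16 and 32.47 FPKM (-0.57 ± 0.07, adjusted p = 0.0412). Olig1, a transcription factor of the lineage, had 1044.2, 897.3 and 941.64 FPKM against 725.29, 712.57 and 732.26 FPKM, and Pdgfra, the receptor of the progenitors for PDGF, had 2.97, 3.67 and 4.08 FPKM against 2.41, 1.86 and 2.59 FPKM, both with separate groups and adjusted p-values of 0.11 and 0.17. Of 14 members tested, 10 were lower and 0 higher at an unadjusted p-value under 0.05, with a median of -0.48 and between 8 and 11 lower when samples were left out in turn. Myelin genes of mature oligodendrocytes were low in all samples, with Mog at 0 in 5 of them and at 0.05 FPKM in NAD+ replicate 1. In bulk samples, fewer cells of a type and less RNA per cell cannot be told apart.

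Astrocyte genes were also lower, and 1 of them fell. Slc6a11, the GABA transporter GAT-3, fell from 247.36, 260.93 and 267.13 FPKM to 180.73, 178.56 and 179.08 FPKM (-0.53 ± 0.07, adjusted p = 0.0434). Its NAD+ samples spread less than its Ctrl samples. Of 25 astrocyte genes, 10 were lower and 0 higher at an unadjusted p-value under 0.05 with a median of -0.35. Between 7 and 18 were lower when samples were left out in turn, with the 18 reached without NAD+ replicate 1. Ctrl and NAD+ replicates 1 shared high levels of some of these genes. Apoe, a lipid carrier, was at 877.08 FPKM in Ctrl replicate 1 and 927.41 FPKM in NAD+ replicate 1 against 314.71 to 416.39 FPKM in the other 4 samples, and the water channel gene Aqp4 was at 13.68 and 9.95 FPKM against 2.42 to 5.82 FPKM. Gfap, the astrocyte intermediate filament, was at 20.17, 19.49 and 17.49 FPKM in Ctrl and 20.50, 11.27 and 12.17 FPKM with NAD+, values that overlapped.

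Stem and progenitor genes differed among themselves, with 6 of 15 lower and 1 higher at an unadjusted p-value under 0.05 and 4 lower without any 1 of the Ctrl samples or NAD+ replicate 1 and 3 without NAD+ replicate 2 or 3. Tnc, the matrix protein tenascin C, was the member on the higher side, at 18.01, 21.50 and 18.89 FPKM against 25.41, 27.46 and 27.15 FPKM (0.46 ± 0.09, adjusted p = 0.0985). Sox2 differed by less than the spread between samples. New-neuron genes were mostly near the detection limit, with 12 of 29 tested, and Dcx, doublecortin, was between 1.02 and 1.82 FPKM in all samples.

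Genes of synapses, axon growth and ion channels moved in both directions and were mostly lower. Gap43, a protein of growing axons that is also made by glial progenitors (chromosome 16, 42248442 to 42340651, minus strand), was at 48.37, 45.41 and 52.04 FPKM in Ctrl and 23.12, 24.54 and 24.29 FPKM with NAD+ (-1.01 ± 0.08, adjusted p = 0.0225). Cadm2, a synaptic cell adhesion molecule, was at 11.94, 14.02 and 13.85 FPKM against 6.88, 7.16 and 5.51 FPKM (-1.02 ± 0.13, adjusted p = 0.0401). Complexin 2 was the exception, as given above. Over 32 synapse and axon genes, 8 were lower and 2 higher at an unadjusted p-value under 0.05, with a median of -0.15, and 11 were lower without Ctrl replicate 1 and 4 higher without NAD+ replicate 2. Nlgn1 (neuroligin 1) and Syn2 (synapsin II) were among the lower genes, with log2 fold changes of -0.70 and -0.56 that missed the adjusted threshold.

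Of 31 ion channel and neurotransmitter receptor genes, 3 fell (Chrna4, Kcnip1 and Kcnmb4), 1 rose (Cacng5), and 10 were lower and 2 higher at an unadjusted p-value under 0.05. Their median was -0.38, and 16 were lower without Ctrl replicate 1. Kcnip3, a further calcium-binding channel partner, was at 69.73, 74.10 and 76.30 FPKM in Ctrl and 53.98, 51.14 and 54.71 FPKM with NAD+ (-0.46 ± 0.08, adjusted p = 0.0635). Grm3, a metabotropic glutamate receptor, was at 6.13, 7.93 and 7.30 FPKM against 4.14, 3.10 and 3.60 FPKM (-0.96 ± 0.15, adjusted p = 0.0549). Further falls were those of Sncb (beta-synuclein), Nxph1 (neurexophilin 1), Cend1 (a neuronal cell cycle exit protein), Sez6l, Iglon5, Cacng8 and Spon1 (F-spondin), by 0.98, 0.83, 0.88, 0.62, 0.79, 0.73 and 0.62 on the log2 scale.

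In the S-phase list, the G2/M list and the list of D-type cyclins and CDK inhibitors, Ccnd3 alone passed the adjusted threshold. Of 14 D-type cyclins and CDK inhibitors, 5 were higher and 1 lower at an unadjusted p-value under 0.05. Between 2 and 7 of them were higher when samples were left out in turn. Ccnd1 and Ccnd2, the D-type cyclins that growth factors induce, were at 79.92, 122.54 and 128.82 FPKM against 138.60, 170.87 and 164.41 FPKM and at 34.11, 49.40 and 49.52 FPKM against 71.83, 57.38 and 56.23 FPKM. For both, Ctrl replicate 1 was well below the other Ctrl samples and the adjusted p-value was 0.23. Of 33 S-phase genes, 8 were higher and 0 lower at an unadjusted p-value under 0.05 against a background of 11.4% higher, and the median was 0.26. The S-phase count went to 17 without NAD+ replicate 1, 5 without Ctrl replicate 1 or 2, and 2 without NAD+ replicate 2 or 3. Ccne1, cyclin E1, which opens S phase, was at 3.70, 4.55 and 5.53 FPKM in Ctrl and 6.70, 9.22 and 8.25 FPKM with NAD+ (0.80 ± 0.18, adjusted p = 0.11). Of 33 G2/M genes, 5 were higher, and this count went to 18 without NAD+ replicate 1 to 2 or fewer without any of the others, and to 1 under median-ratio scaling or quantile normalization. NAD+ replicate 1 was the lowest NAD+ sample for Ccne1 and for the mitotic kinase Nek2.

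Targets of p53 and genes of the immediate early response were more often higher than lower. Of 21 p53 targets, 8 were higher and 0 lower at an unadjusted p-value under 0.05, with a median of 0.25, and the number higher was 11 without Ctrl replicate 1 and 4 without Ctrl replicate 3 or NAD+ replicate 1 or under median-ratio scaling. Gdf15, a secreted stress cytokine, was at 2.15, 1.5 and 1.08 FPKM in Ctrl and 7.75, 5.12 and 4.85 FPKM with NAD+ (1.86 ± 0.28, adjusted p = 0.0516). Trp53inp1 and Ccng1 had log2 fold changes of 0.50 and 0.50, while Cdkn1a, which encodes the cell cycle inhibitor p21, was at 52.51, 33.14 and 33.40 FPKM against 64.08, 41.63 and 38.59 FPKM and overlapped. Of 21 AP-1, EGR and NR4A genes, 8 were higher and 0 lower, or 3 higher without NAD+ replicate 2 and 11 higher and 2 lower without Ctrl replicate 1. Arc was at 1.53, 3.09 and 3.56 FPKM against 5.39, 7.98 and 8.19 FPKM (1.42 ± 0.33, adjusted p = 0.11), with replicate 1 lowest in both groups. Among the 16 ERK feedback genes, Dusp5 rose, Dusp4 was at 1.66, 3.0 and 3.66 FPKM against 6.52, 6.31 and 6.04 FPKM (1.22 ± 0.27, adjusted p = 0.11), and Hbegf, an EGF receptor ligand, was at 3.07, 3.25 and 3.39 FPKM against 5.19, 5.06 and 4.66 FPKM (0.60 ± 0.10, adjusted p = 0.0642).

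Genes of FOXO and NRF2 responses held 1 rise each, Gadd45a and Srxn1. Of 21 FOXO targets, 6 were higher and 2 lower at an unadjusted p-value under 0.05, or 4 and 1 without NAD+ replicate 1, and Sesn3, a sestrin that restrains mTORC1, was at 30.66, 34.45 and 32.99 FPKM against 49.93, 43.37 and 44.24 FPKM (0.49 ± 0.09, adjusted p = 0.0863). Of 28 NRF2 targets and antioxidant genes, 7 were higher and 1 lower, or 7 and 3 without NAD+ replicate 1. Txnrd1, thioredoxin reductase 1, and Sqstm1, the autophagy receptor p62, had log2 fold changes of 0.40 and 0.56, and the ferritin light chain gene Ftl1 was at 748.45, 499.66 and 547.54 FPKM against 970.74, 854.51 and 886.38 FPKM (0.61 ± 0.16, adjusted p = 0.14). Txn1, thioredoxin, was the gene on the other side, at 1190.4, 826.16 and 930.74 FPKM in Ctrl and 639.40, 660.60 and 650.31 FPKM with NAD+ (-0.58 ± 0.14, adjusted p = 0.13).

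The matrix list was split. Of 34 matrix glycoproteins, proteoglycans and matrix enzymes, Ecm1 and Prelp rose, Spon1 and Cspg5 fell, and 8 were higher and 6 lower at an unadjusted p-value under 0.05. Cspg5, a brain chondroitin sulfate proteoglycan, fell from 68.69, 64.65 and 66.22 FPKM to 47.11, 47.80 and 48.03 FPKM (-0.48 ± 0.07, adjusted p = 0.0479). Without Ctrl replicate 1 the matrix list had 9 higher and 10 lower, and it had 4 lower without Ctrl replicate 2, Ctrl replicate 3, NAD+ replicate 1 or NAD+ replicate 3 and 3 lower with nuclear genes rescaled to equal sums. The metalloproteinase inhibitors differed in sign, with Timp2 at 28.51, 27.51 and 31.74 FPKM against 46.92, 42.93 and 42.46 FPKM (0.59 ± 0.09, adjusted p = 0.0516) and Timp4 at 43.95, 44.35 and 46.05 FPKM against 34.36, 31.98 and 32.19 FPKM (-0.45 ± 0.07, adjusted p = 0.0635). Of 13 collagen genes, 5 were higher and 0 lower, or 3 higher without NAD+ replicate 1, with Col9a3 at 9.42, 9.21 and 8.59 FPKM against 12.19, 12.38 and 12.35 FPKM (0.44 ± 0.08, adjusted p = 0.0806). In the Notch pathway, Dner, a Notch-binding membrane protein, fell from 60.70, 54.98 and 53.33 FPKM to 36.20, 31.99 and 32.55 FPKM (-0.74 ± 0.09, adjusted p = 0.0387), 6 of 20 genes were lower and 2 higher (3 lower and 1 higher without NAD+ replicate 3), and the receptors Notch2 and Notch3 had opposite signs at 0.62 and -0.40.

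Genes that make NAD+, and the sirtuins, poly-ADP-ribose polymerases and NAD+ hydrolases that consume it, differed little. Of 10 synthesis and salvage genes tested, 0 were higher and 1 lower at an unadjusted p-value under 0.05, the mitochondrial NAD+ kinase Nadk2, at 27.16, 23.14 and 21.95 FPKM in Ctrl and 21.60, 17.62 and 16.57 FPKM with NAD+. Nampt, the rate-limiting enzyme of salvage, was at 10.43, 11.78 and 12.29 FPKM against 10.15, 10.07 and 9.90 FPKM (-0.19 ± 0.09, adjusted p = 0.33). Of 20 sirtuins, poly-ADP-ribose polymerases and NAD+ hydrolases, 1 was higher and 1 lower. In a list of enzymes of extracellular nucleotides and adenosine handling, which also holds enzymes inside cells, 5 of 16 were higher and 2 lower. These counts were 5 to 6 higher and 1 to 3 lower when samples were left out in turn. Alpl, the tissue-nonspecific alkaline phosphatase that can dephosphorylate extracellular nucleotides, fell from 9.68, 8.35 and 8.31 FPKM to 5.27, 5.20 and 5.14 FPKM (-0.74 ± 0.10, adjusted p = 0.0412). Nudt12, a peroxisomal pyrophosphatase for NADH, was at 2.13, 2.36 and 2.36 FPKM against 4.23, 3.54 and 3.91 FPKM (0.74 ± 0.12, adjusted p = 0.0635), and Entpd5 at 10.17, 11.06 and 10.43 FPKM against 15.23, 14.44 and 14.61 FPKM (0.48 ± 0.08, adjusted p = 0.0635). Of 5 purinergic receptor genes tested, the ATP-gated channel gene P2rx7 had a log2 fold change of 0.45 and the adenosine receptor gene Adora2b of -0.76. Cyclic AMP genes numbered 29, with the fall of Pde1b, 4 lower and 0 higher at an unadjusted p-value under 0.05, and a median of 0.12 that went to -0.03 without Ctrl replicate 1. In the 15 calcineurin, RCAN and NFAT genes, Rcan3 fell, while its relative Rcan1 was at 14.69, 14.07 and 14.35 FPKM against 16.02, 14.94 and 17.52 FPKM (0.17 ± 0.09).

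The balance of well-expressed genes depended on the scaling and on Ctrl replicate 1, which has the largest summed FPKM. Of 905 genes with a mean of at least 50 FPKM, 139 were lower and 43 higher at an unadjusted p-value under 0.05, and 6 passed the adjusted threshold. The counts were 142 lower and 101 higher without Ctrl replicate 1, 100 lower and 99 higher under quantile normalization, and 171 lower and 25 higher under median-ratio scaling. Of the 10 with the smallest unadjusted p-values, Nptx1 and Lcat were higher and the other 8 lower, among them Nell2, a secreted neural glycoprotein, at 123.39, 116.63 and 114.43 FPKM in Ctrl and 80.53, 64.83 and 60.78 FPKM with NAD+ (-0.79 ± 0.12, adjusted p = 0.0516). Ahcyl1, a regulator of the inositol trisphosphate receptor, was at 99.52, 110.27 and 105.57 FPKM against 77.38, 69.57 and 68.03 FPKM (-0.55 ± 0.09, adjusted p = 0.0549). Gpm6a, a neural membrane glycoprotein, was at 246.68, 218.37 and 229.94 FPKM against 156.01, 156.63 and 166.73 FPKM (-0.53 ± 0.08, adjusted p = 0.0549). In all 10 genes the groups were apart.

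The remaining lists held 0 calls, and their counts here are at an unadjusted p-value under 0.05. The 25 apoptosis genes had 4 higher and 1 lower, with 2 to 8 higher when samples were left out in turn. The 17 BMP and ID genes had 0 higher and 4 lower, with 2 to 5 lower when samples were left out. The 19 pentose phosphate and NADPH genes had 1 higher and 3 lower, and the 9 neuropeptide and secretory granule genes 2 and 2. The interferon-induced genes (1 of 16 higher), the integrated stress genes (2 of 27 higher and 1 lower), the WNT pathway (2 of 24 higher), the Hedgehog pathway (1 of 10 higher) and the TGF-beta genes (1 of 14 higher) had medians from -0.07 to 0.15, and the WNT and TGF-beta medians were below 0 under median-ratio scaling and quantile normalization. The lysosome genes had 6 of 29 higher and 1 lower, and 1 or 0 higher without Ctrl replicate 2, Ctrl replicate 3 or NAD+ replicate 1 or under median-ratio scaling. The 24 serine, one-carbon and amino acid synthesis genes had 7 lower and 2 higher. The number lower was 10 when Ctrl replicate 1 was left out, at most 3 when Ctrl replicate 2 or 3 or NAD+ replicate 2 or 3 was, and 1 with nuclear genes rescaled to equal sums. The 35 receptor tyrosine kinase and PI3K-Akt genes had 5 higher and 4 lower, or 4 higher and 7 lower without Ctrl replicate 1 and 7 higher and 2 lower without Ctrl replicate 2. The 22 integrin and adhesion genes had 2 and 2, or 1 and 4 without NAD+ replicate 1, and the 15 acute-phase and reactive astrocyte genes 4 and 0. Of 20 hypoxia-response genes, 6 were lower and 0 higher, 4 lower without Ctrl replicate 3 or NAD+ replicate 3 and 10 without Ctrl replicate 1, and Ndrg1 was at 2.98, 4.0 and 3.79 FPKM in Ctrl and 1.44, 2.09 and 1.88 FPKM with NAD+ (-0.96 ± 0.19, adjusted p = 0.0912). Cd68, listed with microglia, was at 1.01, 1.16 and 0.77 FPKM against 6.89, 3.07 and 2.83 FPKM (1.91 ± 0.35, adjusted p = 0.083), and the summed FPKM of the 16 microglia markers was 19.34 to 25.14 in Ctrl and 26.0 to 31.6 with NAD+. The 14 of them below a mean of 1 FPKM were at or below 0.47 FPKM in every sample, with C1qb and Trem2 at 0 in all 6. P2ry12 was at 0.02, 0 and 0.11 FPKM in Ctrl and 0.14, 0.08 and 0.29 FPKM with NAD+. It alone among the 14 had a higher mean with NAD+, and the others that were detected had a higher mean in Ctrl.

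**Figure D5:**
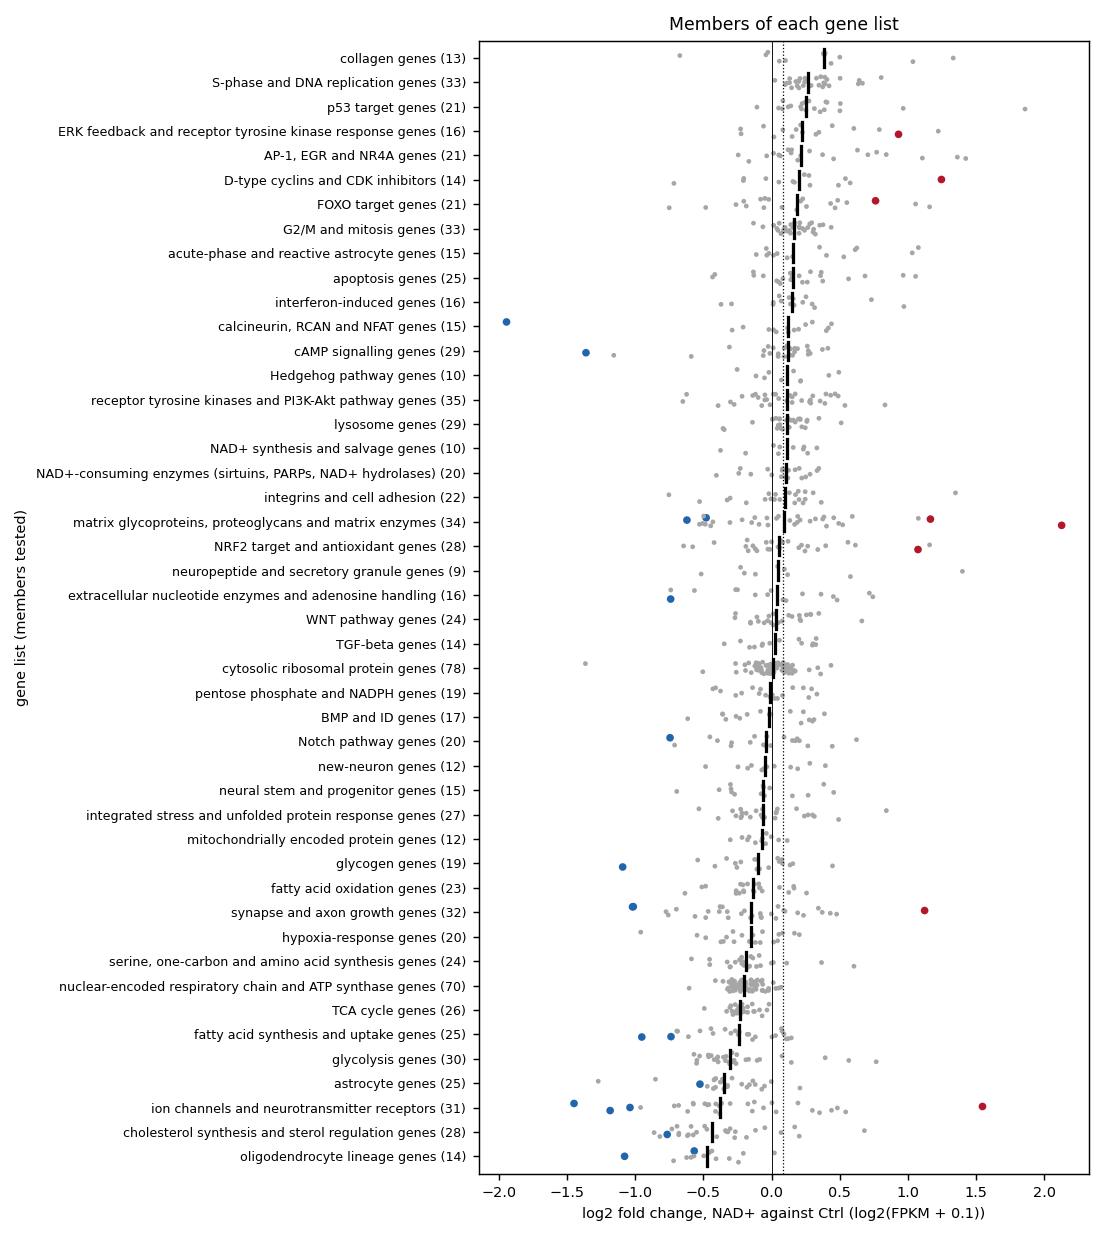
Log2 fold change (NAD+ against Ctrl) of every tested member of the gene lists with at least 9 tested members, ordered by list median (black bars), with called genes in red (higher) or blue (lower), a solid line at 0 and a dotted line at 0.08, the median of all genes tested. The oligodendrocyte, cholesterol and ion channel lists have the lowest medians (-0.48, -0.44 and -0.38) and the collagen and S-phase lists the highest (0.38 and 0.26).

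The NAD+ effect was then set against that under differentiation conditions, which was measured on 6 other samples, in a limma fit of all 12. Of the 75 genes, 36 were called in the same direction under differentiation conditions and 2 in the other, where 2.37% of all genes tested were called higher and 5.88% lower. The difference between the effects passed an adjusted p-value of 0.05 for 96 of all 12626 genes (0.760%) and for 18 of the 75, which were chosen on one side of that contrast, so that no more is read from the 18. Fabp5 and Slc6a11 had log2 fold changes of -1.11 and -0.62 under differentiation conditions, next to -0.74 and -0.53 in proliferating cells, and Ecm1 and Srxn1 of 0.75 and 0.88, next to 1.17 and 1.07. Pygm had 0.31 there, next to -1.09. The sterol list, which holds a single called gene, had a median of -0.70 under differentiation conditions, next to -0.44, and the oligodendrocyte list had -0.55, next to -0.48, while the median of all genes was -0.08 there.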

How the data were processed

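The NAD+ concentration is the one the study gives for its RNA-seq samples. Total RNA was extracted with Trizol and libraries were made with the NEBNext Ultra kit. The authors mapped reads to mm10 with Hisat2, kept uniquely mapped reads and counted them per gene with FeatureCounts. The authors deposited FPKM values per gene and sample, rounded to 0.01, and the program that made the FPKM is not given in the sources used here. Counts were not used here, so the depth of the samples is unknown and no counting interval is given. The deposited table also holds the authors' group means, fold changes, log2 fold changes, p-values and q-values, which were not used, and 0 other columns of sample values.

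Genes with a mean of at least 1 FPKM over the 6 samples were tested on log2(FPKM + 0.1) with limma 3.58.1 (R 4.3.3), with a trend in the prior variance, 3 samples in each group and Benjamini-Hochberg adjustment over all genes tested. A gene was called at an adjusted p-value under 0.05. The scripts were tested on simulated data with known changes. The difference between conditions was tested in a limma fit of all 12 samples. The members, the 51 gene lists and the tests were chosen with earlier results of these data known, and 3 list symbols were not in the table. Named genes were the 15 protein-coding genes with the largest rises and the 15 with the largest falls among the called genes, the 10 with a mean of at least 50 FPKM and the smallest p-values, and from each list the called genes, the gene with the smallest p-value and the 2 with the highest mean FPKM. Other genes were named after their values were seen. Positions and gene types are from GENCODE M21 (GRCm38), and promoters from 250 bases before to 50 bases after the start are from RefSeq (GRCm38.p6). Motifs were searched on both strands. Alternatives covered the number added, the filter, the scaling, the variance model, a replicate block, the threshold and leaving out each sample. A few list members are counted in their lists and are not reported here by name.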

Additional observations from a re-analysis of the deposited data

Results flagged for a closer look

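Of 40 genes named for their change or their level, 10 had a NAD+ effect in proliferating cells that differed from that under differentiation conditions at an adjusted p-value under 0.05 (limma, difference of both effects over 12 samples, adjusted over all genes tested). All 10 genes except Gpm6a were also called in proliferating cells, so the choice of genes used one side of this contrast. The difference is given as the log2 fold change in proliferating cells minus that under differentiation conditions.

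Pygm (glycogen phosphorylase) had a difference of -1.407, with log2 fold changes of -1.09 and 0.31, and Kcnmb4 (a potassium channel subunit) one of -1.129, with -1.04 and 0.09. Nwd1 had a difference of 1.552, with 1.26 and -0.29, and Nptx1 (neuronal pentraxin 1) one of 1.323, with 0.82 and -0.51. Arrdc4 (an alpha-arrestin) had a difference of 1.221 and Cplx2 (complexin 2) one of 1.003, with effects of 0.04 and 0.12 under differentiation conditions. Plxnd1 (a semaphorin receptor) and Pdlim4 (a cytoskeletal protein) had differences of 0.8905 and 0.7995. The proteoglycan gene Cspg5 and the membrane glycoprotein gene Gpm6a had differences of -0.4701 and -0.4741, with effects of -0.01 and -0.06 under differentiation conditions.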

How the results depend on the processing

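Against 29 rises and 46 falls, a minimum mean FPKM of 0.1 gave 9 and 18, no filter 1 and 8, no trend in the prior variance 11 and 18, and no moderation 8 and 9. Quantile normalization gave 91 falls, rescaling nuclear genes to equal sums 0 rises and 0 falls, and an adjusted p-value under 0.10 gave 117 and 155. The study's rule gave 63 rises, and in both directions together 122 genes, 559 at a minimum of 0.1 FPKM, 950 without a filter and 37 at a minimum of 5 FPKM. Leaving out 1 sample at a time gave between 0 and 61 rises and between 0 and 74 falls, and between 121 and 175 genes by the study's rule. A replicate block gave 0 rises and 0 falls, with a smallest adjusted p-value of 0.0974 from limma and with 1589 genes higher and 887 lower at an unadjusted p-value under 0.05. Whether same-numbered samples are paired is not known. The correlations of same-numbered deviations were 0.188, 0.042 and 0.103, and that of the replicates 1 was the highest of all pairs. Not every sample correlated best with its own number, and 3 samples in each group are too few to decide this. Of the 40 genes named for their change or their level, none reversed its direction under any alternative tried. Their groups do not overlap, so leaving out a sample could not have reversed it. The alternatives for well-expressed genes and for leaving samples out of the gene lists were chosen after seeing the data. Other causes of these shifts were not tested, the depth is unknown, and 3 samples in each group limit every adjusted p-value. Interactions of named genes with the condition numbered 10, and 7 under the block.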
